A study of Rattus norvegicus with 6 samples.

Results

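The collagen chains were read from primary ventricular cardiomyocytes of 2-day-old Sprague-Dawley rats, heart muscle cells that beat in the dish, which were left in control serum-free medium or treated with recombinant human cardiotrophin 1 (hCT1, 0.5 nM) for 24 h. Each group had 3 samples, and the total RNA of each sample was processed for its own Affymetrix whole-transcript array. Values are on the log2 scale of RMA, by which the authors corrected background, normalized the arrays to each other and condensed the probes of each probe set, and a difference of 1 is a doubling. The methods of the study state that the cells were pre-plated in 2 rounds to remove cardiac fibroblasts and then grown on collagen-coated dishes, and the records do not say whether the replicates were separate cultures, so that each p-value rests on the variation among these samples alone, part or all of which may be technical. The growth text, the same in the records of all 6 samples, controls included, mentions a hypertrophic agonist in the medium. The array methods of the study, however, give control serum-free medium for the controls, and the treatment section calls this medium a non-hypertrophic control.

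A gene was taken as a collagen chain when its symbol began with Col, a number, the letter a and another number, and when its probe set was paired with that symbol alone. This gave 25 of 14506 genes, on 27 probe sets, and the brightest probe set stood for each gene. The RefSeq gene table of assembly GRCr8 lists 44 such symbols, and the other 19, which include Col4a2, Col4a5, Col6a1, Col6a2, Col6a3, Col15a1 and Col18a1, were not analysed here. All 25 symbols matched that table through their Entrez identifiers.

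Most collagens are secreted proteins in which several chains wind into a stiff helix. Chains that cannot form a helix for lack of partners are generally retained in the cell and degraded. The fibrillar types I, III and V form the load-bearing fibers of the cardiac interstitium and are made mainly by fibroblasts, whereas type IV forms the sheet-like network of the basement membrane that surrounds each cardiomyocyte and capillary. Excess fibrillar collagen is the hallmark of fibrosis in the failing heart.

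After 24 h with hCT1, Col4a3 and Col4a4, which encode the alpha 3 and alpha 4 chains of type IV collagen, were 1.55-fold and 1.35-fold lower than in control samples, and Col8a1, a chain of the short network collagen of vessel walls, was 1.16-fold lower. By limma, at a Benjamini-Hochberg adjusted p under 0.05, the lower chains numbered 3, the higher ones 0, and the other 22 missed the threshold. The share of lower chains, 12%, lay near that of all genes tested, of which 9.58% were lower and 5.09% higher. For 8 of the 25 chains every hCT1 sample lay below every control sample, and for 0 every hCT1 sample lay above, against 20.0% and 14.2% of all genes. The median log2 fold change was -0.08 over the chains and -0.0005 over all genes, and 64% of the chains lay below 0, against 50.1% of all genes. Over all genes 739 were higher and 1390 lower, so that 34.7% of the calls were higher; after a further quantile normalization the split was 886 to 1058, or 45.6% higher, and 2 chains (Col4a3 and Col4a4) passed.

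**Figure D1:**
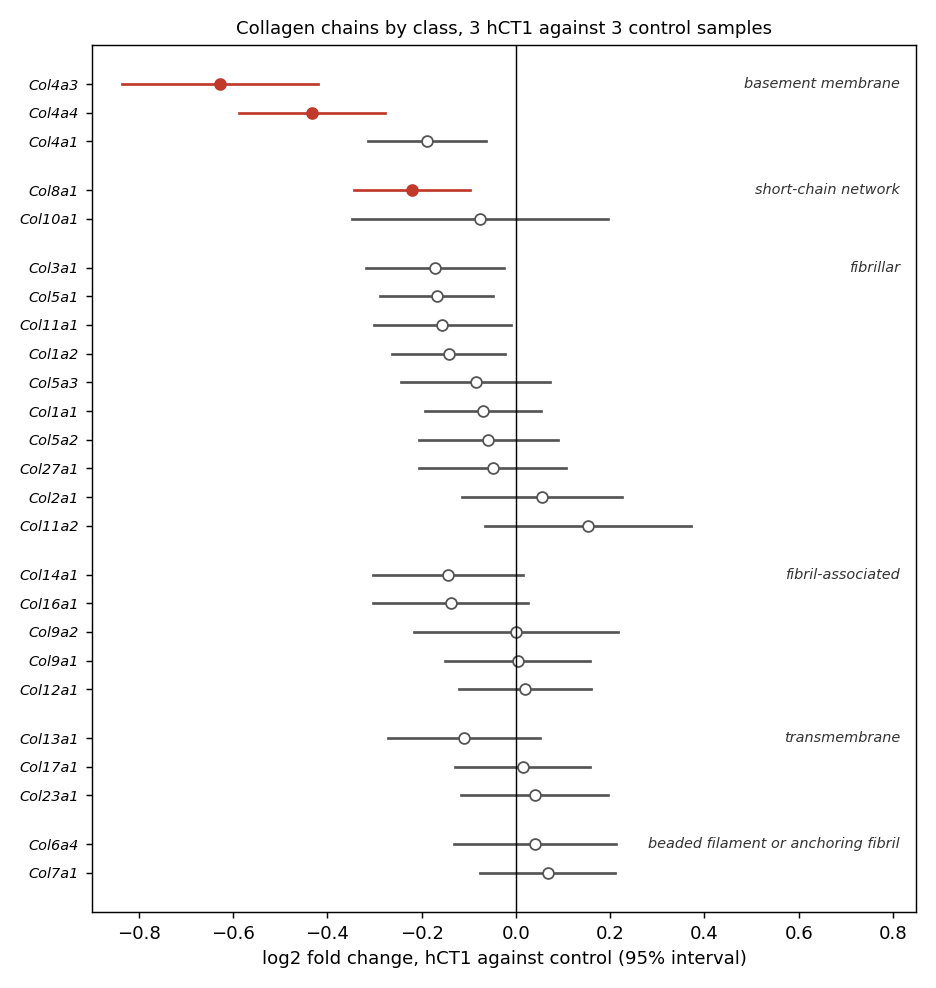
Log2 fold change (x axis, hCT1 against control, 3 samples each) of the 25 collagen chains, grouped by class, with the 95% interval from limma as a line; red filled points are chains past an adjusted p of 0.05 and open points are the others. The filled points are Col4a3 at -0.63, Col4a4 at -0.43 and Col8a1 at -0.22, and the other 22 lie between -0.19 and 0.15.

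The alpha 3 and alpha 4 chains of type IV collagen assemble with the alpha 5 chain into a network best known from the basement membranes of the kidney glomerulus and the lung. The log2 value of Col4a3 (probe set 10924719) was 6.47, 6.24 and 6.08 in control samples 1 to 3 and 5.68, 5.61 and 5.62 in hCT1 samples 1 to 3. The groups did not overlap, and the control samples were farther apart from one another (SD 0.199) than the hCT1 samples (SD 0.033). Col4a3 fell by 0.63 on the log2 scale (SE 0.09, 95% interval -0.84 to -0.42, adjusted p = 0.00249 from limma). Col4a4 (probe set 10929396) read 6.23, 6.20 and 6.04 in control samples and 5.73, 5.65 and 5.79 in hCT1 samples, again with no overlap. It fell by 0.43 (SE 0.07, 95% interval -0.59 to -0.28, adjusted p = 0.0038 from limma). In both genes control replicate 3 was the lowest of its group. When any 1 of the 6 samples was left out, both chains still passed, with log2 fold changes of -0.72 to -0.52 for Col4a3 and -0.49 to -0.39 for Col4a4. The table has no detection calls; in control samples Col4a3 lay at percentile 57.3 of signal over all 29215 probe sets and Col4a4 at percentile 56.3, and RMA understates the fold of dim probe sets.

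In RefSeq the Col4a3 and Col4a4 genes lie head to head on rat chromosome 9, and in human and mouse this pair is known to be transcribed in opposite directions from a shared promoter region. The 412 bases between their annotated starts have a G and C content of 63.8%. The 250 bases before each start (RefSeq, GRCr8) are shown because these are the chains with the farthest change and because the stretches overlap; the capitals mark the 88 bases that both hold, on opposite strands. Col4a3 is read on the plus strand at chr9:91323740-91323989 and Col4a4 on the minus strand at chr9:91323578-91323827.
Col4a3: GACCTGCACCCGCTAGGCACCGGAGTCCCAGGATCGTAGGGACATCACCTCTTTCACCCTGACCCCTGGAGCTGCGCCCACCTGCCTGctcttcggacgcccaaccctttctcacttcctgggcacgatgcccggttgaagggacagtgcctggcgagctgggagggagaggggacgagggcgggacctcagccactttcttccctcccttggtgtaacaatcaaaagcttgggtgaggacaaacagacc
Col4a4: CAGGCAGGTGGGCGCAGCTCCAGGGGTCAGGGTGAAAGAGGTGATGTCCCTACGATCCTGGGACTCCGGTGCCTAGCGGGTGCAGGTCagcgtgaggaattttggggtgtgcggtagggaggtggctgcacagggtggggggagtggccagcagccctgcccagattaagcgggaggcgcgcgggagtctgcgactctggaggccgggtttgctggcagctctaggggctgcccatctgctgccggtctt

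Windows of 300 bases, 250 before and 50 after the annotated start, were held by RefSeq for 20 of the 25 chains and were searched on both strands. The letters TTCNNNGAA, which STAT factors can bind, were in 0 of the 20 windows and in 8.87% of all 33469 windows of the table. The letters GGGCGG, a GC box, were in 11 of the 20 windows, that of Col4a3 included and that of Col4a4 not, and in 33.1% of all windows. CCAAT was in 7 of 20 (37.5% of all windows) and TATAAA in 4 of 20 (14.2% of all), and neither was in the Col4a3 or the Col4a4 window. The narrower TTCCNGGAA, whose matches all lie within those of TTCNNNGAA, was in 0 of the 20 windows and in 1.27% of all. A match is a string of letters and not a measured site.

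Col4a1, whose product forms with that of Col4a2 the type IV network of nearly all basement membranes, differed less than its paralogs. It read 9.35, 9.31 and 9.35 in control samples and 9.13, 9.10 and 9.21 in hCT1 samples, without overlap. Its log2 fold change of -0.19 (SE 0.06, 95% interval -0.31 to -0.06) lay just outside the threshold (adjusted p = 0.0502 from limma). The change of Col4a3 minus that of Col4a1, taken within each array, was -0.44, and that of Col4a4 minus Col4a1 was -0.24. In each case the 3 control and the 3 hCT1 differences did not overlap, and the exact 2-sided permutation p of 0.1 is the smallest that 3 samples against 3 allow (adjusted p = 0.117 over 7 pairs of chains compared by this exact test). Of the 7 pairs, only Col5a1 minus Col5a2 had a larger p in this test (0.2), and Col4a3 minus Col4a4 (-0.20) also had 0.1. A p of 0.1 therefore does not set the pairs with Col4a1 apart. The pairs were chosen with the fold changes known.

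Col8a1 encodes a chain of type VIII collagen, a short network collagen that vascular smooth muscle and endothelial cells lay down in vessel walls. Its log2 value was 8.13, 8.17 and 8.22 in control samples and 7.98, 7.93 and 7.95 in hCT1 samples, and the groups did not overlap. It fell by 0.22 (SE 0.05, 95% interval -0.34 to -0.10, adjusted p = 0.0273 from limma). This call was lost without control replicate 1 or 2 or any hCT1 replicate (limma adjusted p from 0.0526 to 0.0892), while the log2 fold change stayed between -0.24 and -0.21. Its RefSeq stretch of 250 bases before the start (GRCr8, chr11:56246532-56246781, plus strand) is shown as that of the other called chain, with the 4 GC boxes, all read as CCGCCC on this strand, in capitals.
Col8a1: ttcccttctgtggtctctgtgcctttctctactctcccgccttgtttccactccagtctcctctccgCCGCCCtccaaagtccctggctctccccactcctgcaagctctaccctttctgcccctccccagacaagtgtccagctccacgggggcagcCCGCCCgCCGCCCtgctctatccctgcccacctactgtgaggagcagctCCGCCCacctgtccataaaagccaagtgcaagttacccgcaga
The other short network chain measured, Col10a1 of growth plate cartilage, had a log2 fold change of -0.08 and the widest spread of any chain among hCT1 samples (5.33, 4.78 and 5.04; SD 0.276).

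**Figure D2:**
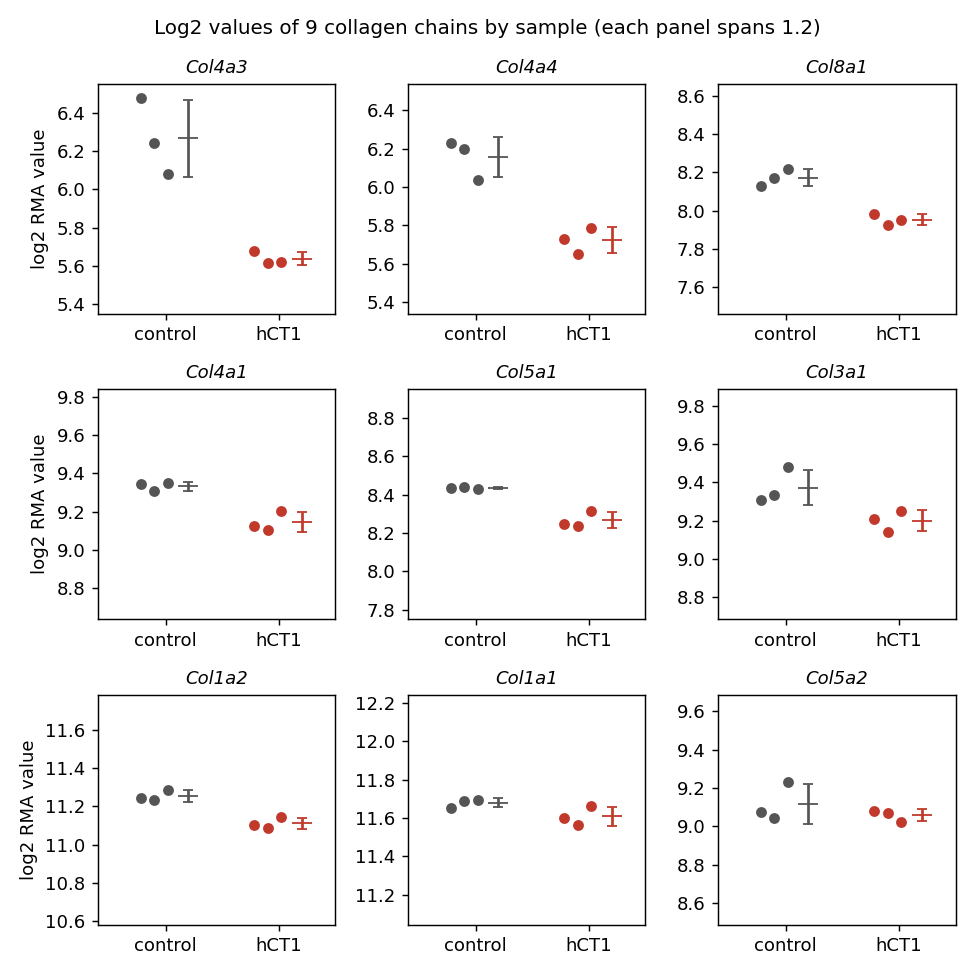
Log2 RMA value (y axis) of 9 collagen chains in 3 control samples (grey) and 3 hCT1 samples (red); each point is a sample, in the order of replicates 1 to 3, and the line with bars beside the points is the mean with its SD. The groups are apart for Col4a3, Col4a4, Col8a1, Col4a1, Col5a1, Col3a1 and Col1a2 and overlap for Col1a1 and Col5a2. Over all 25 chains, 8 had every hCT1 sample below every control sample, against 20.0% of all genes.

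None of the 10 fibrillar chains passed the test, where 9.58% of all genes were lower and 5.09% higher. Their log2 fold changes ranged from -0.17 to 0.15, and 8 of the 10 lay below 0, where 50.1% of all genes did. At an unadjusted p under 0.05 from limma, 4 of the 10 were lower and 0 higher, where 17.9% of all genes were lower and 12.0% higher. Col3a1, the chain of type III collagen, which is plentiful in the young and compliant heart, read 9.31, 9.33 and 9.48 in control samples and 9.21, 9.14 and 9.25 in hCT1 samples, that is, -0.17 (95% interval -0.32 to -0.03, adjusted p = 0.11 from limma). Col5a1, whose product seeds the fibrils of type I collagen, read 8.43, 8.44 and 8.43 in control samples and 8.25, 8.23 and 8.31 in hCT1 samples, a log2 fold change of -0.17 (95% interval -0.29 to -0.05, adjusted p = 0.0648 from limma). Col11a1 did not overlap between groups either, at -0.16.

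Type I collagen, the main fiber of the cardiac interstitium, is built from the products of Col1a1 and Col1a2, whose probe sets were among the brightest of the array, at percentiles 99.3 and 98.5 of control signal. Col1a2 read 11.24, 11.23 and 11.29 in control samples and 11.10, 11.09 and 11.14 in hCT1 samples, without overlap, at a log2 fold change of -0.14 (95% interval -0.26 to -0.02, adjusted p = 0.106 from limma). Col1a1 read 11.65, 11.69 and 11.69 in control samples and 11.60, 11.56 and 11.66 in hCT1 samples, with overlap, at -0.07 (95% interval -0.19 to 0.05, adjusted p = 0.424 from limma). The interval of Col1a1 leaves room for a fall like that of Col1a2. Within arrays the change of Col1a2 minus that of Col1a1 was -0.07 (exact permutation p = 0.1, the smallest possible). Col5a2, the partner of Col5a1 in type V collagen, was 9.12 ± 0.10 in control samples and 9.06 ± 0.03 in hCT1 samples (SD, n = 3 each), at -0.06 (95% interval -0.21 to 0.09). The 2 fibrillar chains above 0 were Col2a1 at 0.06 and Col11a2 at 0.15, both with intervals that include 0.

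The 5 fibril-associated chains, which coat the surface of fibers, ranged from -0.14 to 0.02. None passed, where 9.58% of all genes were lower and 5.09% higher. Col12a1, a chain of type XII collagen, was 9.62 ± 0.02 in control samples and 9.64 ± 0.09 in hCT1 samples (SD, n = 3 each), at 0.02 (95% interval -0.12 to 0.16). Col14a1, its close relative, read 9.11, 9.08 and 9.17 in control samples and 8.86, 8.96 and 9.10 in hCT1 samples, at -0.14 (95% interval -0.30 to 0.01), with overlap through hCT1 replicate 3. Col16a1 was at -0.14 as well, and the cartilage chains Col9a1 and Col9a2 were at 0.004 and 0.001.

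The 3 transmembrane chains, Col13a1, Col17a1 and Col23a1, lay between -0.11 and 0.04. Col7a1, which makes the anchoring fibrils of skin, was at 0.07. Col6a4, of the beaded filament family, was at 0.04 on its brightest probe set and at 0.13 and 0.18 on its other probe sets, none of which passed. The brightest probe sets of these 5 chains lay between percentiles 47.9 and 53.5 of mean signal. The other probe sets of Col6a4 were dimmer, at percentiles 22.0 and 29.1.

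The chains also differed in how bright they were, and their changes are given here by range of signal. Of the 8 chains above percentile 80 of mean signal (Col1a1, Col1a2, Col3a1, Col4a1, Col5a1, Col5a2, Col12a1 and Col14a1), 7 lay below 0, with a median of -0.14, whereas 51.7% of all 3812 genes in that range lay below 0, with a median of -0.01. Of the 15 chains at or below percentile 60, 7 lay below 0 and the median was 0.0008. The 2 chains with the farthest falls, Col4a3 and Col4a4, were in this dimmer range. They were the 2 of its 15 chains called lower (13.3%, beside 9.58% of all genes at any signal). The share over genes of the dimmer range alone was not computed. These ranges were chosen after the values were seen, and no test was made of them; 0 of the 8 bright chains passed, against 11.2% of bright genes called lower.

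**Figure D3:**
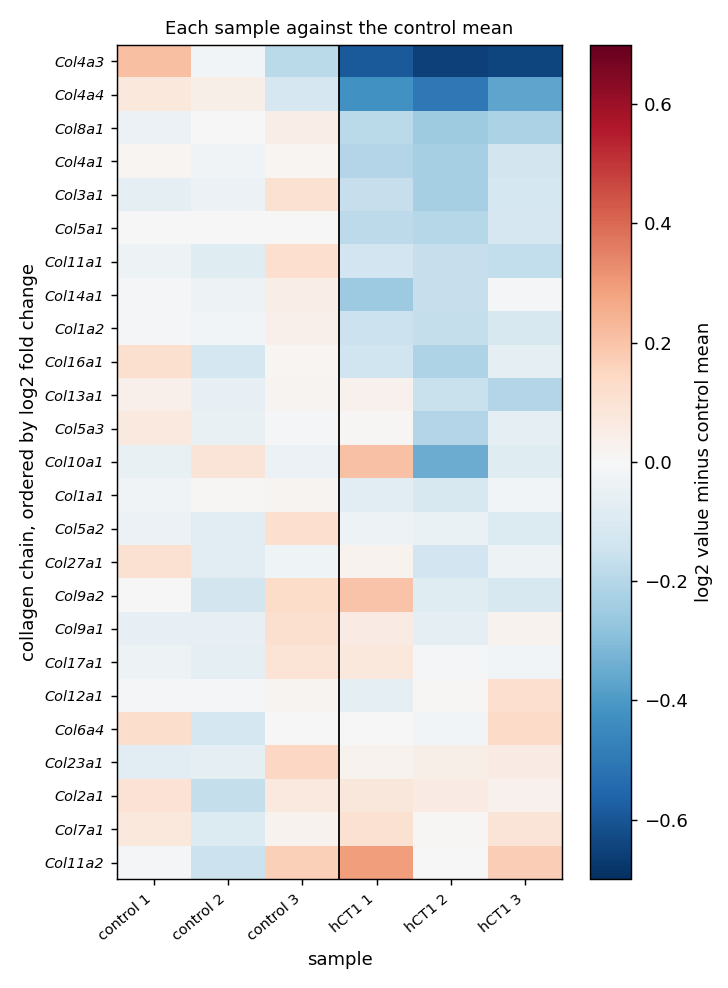
Each cell is the log2 value of a collagen chain (rows, ordered by log2 fold change) in 1 of the 6 samples (columns) minus the mean of the 3 control samples, from blue (lower) to red (higher). The top rows, from Col4a3 to Col1a2, are blue in nearly every hCT1 sample, and the rows further down are paler, some of 1 color in all 3 hCT1 samples and some mixed.

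Within a group the chains tended to be low in the same sample. Control replicate 2 held the lowest value of its group for 17 of the 25 chains, against 31.2% of all genes, and hCT1 replicate 2 held the lowest for 16, against 40.4% of all genes. The median deviation of the chains from their group mean was -0.06 in control replicate 2 and -0.04 in hCT1 replicate 2, and lay between -0.01 and 0.02 in the other 4 samples. The chains share arrays, so their deviations are not independent of each other. The median log2 fold change of the chains was -0.10 without control replicate 2 and -0.05 without hCT1 replicate 2.

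Genes that modify, fold and export procollagen were tested from a list of 26, of which 23 were measured: 2 were higher, 0 were lower and 21 missed the threshold (median -0.02 on the log2 scale), beside 5.09% of all genes higher and 9.58% lower. P3h2 encodes prolyl 3-hydroxylase 2, an enzyme that in the mouse modifies chains of type IV collagen. Its log2 value rose from 8.42, 8.45 and 8.46 in control samples to 9.08, 9.04 and 9.01 in hCT1 samples, by 0.61 (SE 0.05, limma adjusted p = 0.000136). Its relatives P3h1 (-0.14) and P3h3 (-0.19) did not pass. Fkbp14, a prolyl isomerase of the endoplasmic reticulum, rose by 0.22 (adjusted p = 0.0429 from limma), a call that was lost without control replicate 1 or 2 or any hCT1 replicate, which left 1 gene of the list higher. The collagen chaperone gene Serpinh1 was at -0.10, the prolyl 4-hydroxylase genes P4ha1 and P4ha2 at -0.07 and -0.06, and the lysyl hydroxylase genes Plod1, Plod2 and Plod3 between -0.06 and 0.04, and none of these passed.

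Of 18 measured genes that mature collagen outside the cell, 1 was higher, 2 were lower and 15 missed the threshold (median -0.06), shares near the 5.09% and 9.58% of all genes. Loxl4, a cross-linking amine oxidase of the lysyl oxidase family, rose by 0.41 (SE 0.06, adjusted p = 0.00277 from limma), from 6.89, 6.88 and 6.76 to 7.31, 7.23 and 7.22. The other members of that family, Lox, Loxl1, Loxl2 and Loxl3, lay between -0.21 and -0.03 and did not pass. The procollagen proteinase genes Tll1 and Adamts14 fell by 0.32 and 0.31 (limma adjusted p = 0.0137 and 0.0196). Leaving out control replicate 1 or 2 or hCT1 replicate 1 or 2 left 1 gene of the list lower, and leaving out control replicate 3 left 3.

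Of 10 measured collagen receptors, 2 were higher and 0 lower (median 0.06), where 5.09% of all genes were higher and 9.58% lower. Adgrg1, an adhesion receptor for type III collagen, rose by 0.58 (SE 0.05, adjusted p = 0.000217 from limma), from 9.01, 9.01 and 8.94 to 9.56, 9.54 and 9.61. Itga1, the integrin subunit that with Itgb1 binds type IV collagen, rose by 0.30 (SE 0.05, adjusted p = 0.00766 from limma), from 9.50, 9.52 and 9.59 to 9.81, 9.87 and 9.82. Itgb1 (0.12), Ddr1 (0.06) and Ddr2 (-0.02) did not pass.

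**Figure D4:**
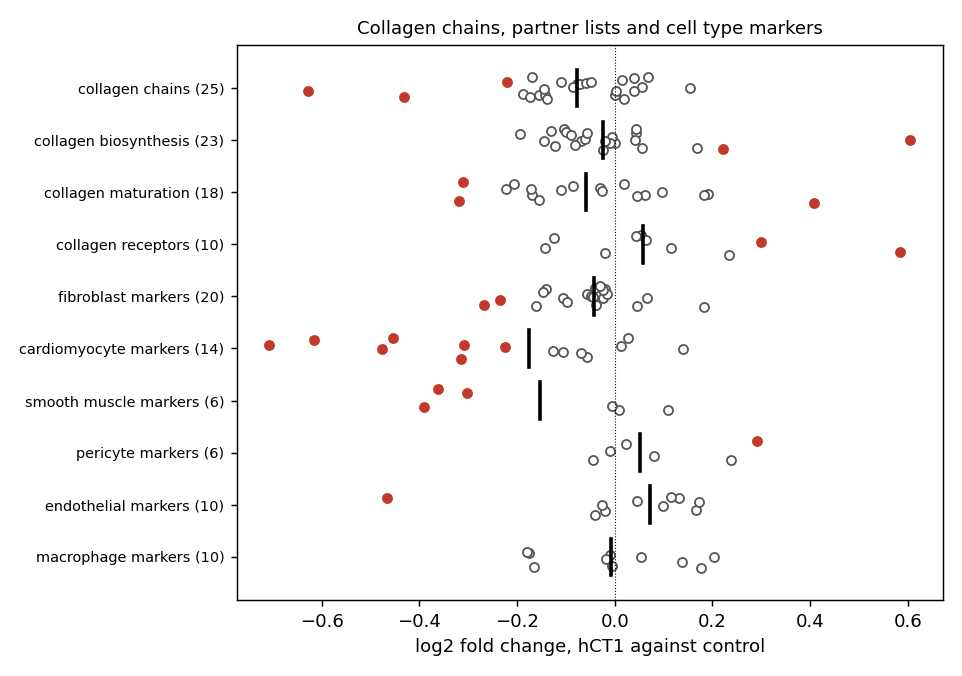
Each point is the log2 fold change (x axis, hCT1 against control) of 1 gene, in rows by list with the number of genes measured; red filled points are past limma's adjusted p of 0.05, open points are not, and the black bars are medians. The collagen chains have 3 filled points, all below 0, and the filled points of the biosynthesis and receptor rows lie above 0.

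In a bulk culture fewer cells of a type and less RNA per cell cannot be told apart, so marker genes are given beside the chains. Cardiomyocyte markers were bright and none was near the dim end of the scale (lowest at percentile 81.2 of mean signal). Each count of markers stands beside 9.58% of all genes lower and 5.09% higher. Of 20 fibroblast markers, Fbln2 (-0.27) and Mfap4 (-0.23) were the 2 lower ones, a share near that of all genes. None was higher and 18 missed the threshold. Of the 20, 17 lay below 0, where 50.1% of all genes did, and the median was -0.04. The mean log2 level of the list was 8.39 to 8.44 in control samples and 8.33 to 8.39 in hCT1 samples. The 18 that missed the threshold ranged from -0.16 (Thy1) to 0.18 (Dcn). The count of lower fibroblast markers was 0 without control replicate 1 or hCT1 replicate 1 or 2, and 1 without control replicate 2. Of 14 cardiomyocyte markers, 7 were lower, led by Ckm (-0.71) and Tnni3 (-0.62). The other 7 missed the threshold, and 3 of the 14 lay above 0: Csrp3 (0.14), Tnnt2 (0.03) and Myh7 (0.01). The mean level of the list was 10.85 to 10.89 in control samples and 10.61 to 10.66 in hCT1 samples. Of 6 smooth muscle markers 3 were lower (Myh11, Smtn and Tagln, from -0.39 to -0.30). The other 3, Cnn1 (0.11), Acta2 (0.01) and Lmod1 (-0.01), missed the threshold. Smooth muscle markers had a mean level of 9.40 to 9.44 in control samples and 9.24 to 9.30 in hCT1 samples. Of 10 endothelial markers 1 (Emcn, -0.47) was lower, of 6 pericyte markers 1 (Abcc9, 0.29) was higher, of 4 mesothelial markers 1 (Msln, -0.29) was lower, and of 10 macrophage and 2 Schwann cell markers 0 passed. Of the endothelial markers 6 lay above 0 and 4 below, with a median of 0.07. Their mean level was 6.60 to 6.72 in control and 6.64 to 6.73 in hCT1 samples. The part of these cell types in the changes of the collagen chains was not tested.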

How the data were processed

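The authors processed total RNA of 3 control and 3 hCT1 samples for Affymetrix arrays and deposited log2 values made with RMA. Affymetrix Expression Console is the software listed in the submitters' processing notes, with no version. The genome build is not given in the sources used here. Of 29215 probe sets, 15310 were paired with exactly 1 symbol by the platform annotation and entered the fit, 323 had several symbols and 13582 none. hCT1 was compared with control with the limma package (version 3.58.1, R 4.3.3; lmFit followed by eBayes, 2-sided, no replicate block), adjusted by Benjamini-Hochberg over the 15310 probe sets at 0.05; counts are over 14506 genes, each by its brightest probe set. The fit was tested on simulated data. The number of arrays, 3 a group, limits the precision. Pearson's r was 0.997 to 0.998 within groups and 0.994 to 0.996 between them.

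All members may be named, with full values for those that passed and for the main cardiac chains; from partner lists, the farthest 4 that passed are named, and further members were chosen after their values were seen. Members and lists were chosen with earlier results of these data known. Alternatives were other tests, filters, normalizations and thresholds, each sample left out, and the replicate number as a block. Over all genes, samples of the same number did not deviate together.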

Additional observations from a re-analysis of the deposited data

How the results depend on the processing

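The falls of Col4a3 and Col4a4 kept their direction in all 18 alternatives and passed in all but 1, the one-way analysis of variance that the methods name for other assays, adjusted over all probe sets tested (adjusted p = 0.064 and 0.0516); the 2 chains it called were Col8a1 and Col5a1. Col8a1 kept its direction and no longer passed in 10 of 18. The number of higher chains was 0 in every alternative. The number of lower chains, 3 as reported, was 6 with trend and robust eBayes (Col4a1, Col5a1 and Col1a2 added). It was 5 with array weights, 5 once dim probe sets were filtered out and 5 at an adjusted p under 0.1. By the unadjusted one-way test it was 7, and 2 to 3 when each sample was left out. Lower calls over all genes rose as well, from 1390 to 1727 with trend and robust eBayes and 1868 with array weights. They were 1769 with dim probe sets filtered out, 2001 at an adjusted p under 0.1 and 2274 by the unadjusted one-way test. What caused these differences was not tested, apart from the thresholds themselves. With the replicate number as a block, 2 chains were lower. Over all genes, though, same-numbered samples did not deviate together (r of deviations -0.025, 0.046 and -0.285). No sample correlated best with the one of its own number, although both replicates 2 were low for the chains (median deviation -0.06 and -0.04). The block also gave 1 higher biosynthesis gene and 1 lower fibroblast marker. With dim probe sets filtered out, 1 biosynthesis gene and 5 maturation genes were lower, as were 1769 of all genes. Leaving out each sample gave 1 to 3 higher biosynthesis genes, 1 to 3 lower maturation genes and 0 to 2 lower fibroblast markers. The total of 2129 genes called (739 higher and 1390 lower) ranged from 288 higher and 517 lower at an adjusted p under 0.01 to 1441 and 2274 by the unadjusted one-way test, and was 477 and 943 with the block. Chains near 0 changed sign: with another quantile normalization Col27a1 was 0.0026 and Col9a1 -0.012, and over the left-out samples the log2 fold change ranged from -0.217 to 0.0596 for Col10a1, -0.0958 to 0.00055 for Col5a2, -0.0876 to 0.00412 for Col27a1, -0.0982 to 0.0638 for Col9a2, -0.0252 to 0.0609 for Col9a1, -0.0175 to 0.0632 for Col17a1, -0.0288 to 0.0634 for Col12a1, -0.0221 to 0.102 for Col6a4 and -0.0279 to 0.105 for Col2a1. Signal limits the dim chains, which lay near the middle of the array's range with no detection calls.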
